A study of Mus musculus with 35 samples.

Results

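The circadian clock genes Per1, Per2, Per3, Cry1, Cry2, Nr1d1, Nr1d2, Dbp, Tef and Ciart were followed through hearts and cultured cardiac fibroblasts (CFs) of mice in which the micropeptide IAMP was removed or its mRNA was depleted. The genes were taken by symbol, and all 10 of them were found among the 55487 genes that each of the 4 deposited expression tables lists. In the mammalian clock, the activators CLOCK and ARNTL (also called BMAL1) bind E-box DNA elements and switch on Per, Cry, Nr1d and PAR bZIP genes, after which PER and CRY proteins return to the nucleus and shut that activity down. NR1D1 and NR1D2 (REV-ERB) repress Arntl, so that Arntl mRNA peaks at the opposite time of day from Nr1d1 and Dbp in peripheral tissues such as the heart. Cultured fibroblasts carry the same oscillator in every cell, but without a common timing cue the cells of a dish drift out of phase.

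IAMP is encoded by the mouse gene 4930523C07Rik, and the study asked what its loss does to inflammatory and fibrotic programs of CFs. RNA-seq was available for 27 CF libraries and 8 heart libraries. The CFs came from adult hearts, were expanded in serum-containing medium and received a non-targeting control siRNA (si-NC) or one of a pair of siRNAs against IAMP (si-IAMP-1 and si-IAMP-2). They were left without added cytokine or received IL-17, an inflammatory cytokine, or TGF-β, the main activator of myofibroblast genes, which gives 9 groups with n = 3 libraries each. For IL-17, the labels give 24 h of siRNA followed by 24 h of cytokine, whereas no times were given for the other CF groups. The hearts came from 8-week-old C57BL/6 mice at baseline and comprised 4 heterozygous (Het) and 4 homozygous knockout (KO) animals of a CRISPR-Cas9 frameshift line. All 8 hearts therefore carried at least 1 edited allele, in every cell type, and no wild-type heart was among them. The clock time at which hearts or cells were collected, and the time from the last medium change to harvest, were not given in the sources used here.

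Heart libraries held 23497027 to 23857313 counts, and CF libraries held 104139670 to 119232309 estimated counts, of which about 6 correspond to 1 sequenced read pair. Both siRNAs lowered the IAMP transcript, with log2 fold changes against si-NC of -2.97 and -3.69 in untreated CFs, -2.85 and -3.44 under IL-17 and -2.23 and -2.65 under TGF-β. In KO hearts the transcript had a log2 fold change of -0.09 (SE 0.07, adjusted p = 1.00), so its level does not check the genotype labels of a frameshift allele. Fibroblast markers (Col1a1, Col1a2, Pdgfra, Dcn and Tcf21) were above the detection floor of 18 estimated counts in all CF groups, whereas the cardiomyocyte gene Myh6 was at or below it in each of them. Of the 5 cardiomyocyte markers, however, 2 or 3 were above the floor in each CF group. All 5 endothelial and all 5 macrophage markers were above it in every CF group. Nothing in the labels says that CF libraries of a group came from separate cultures, so p-values there measure the spread between these libraries, which may be technical. In bulk RNA, fewer cells of a type and less RNA per cell cannot be told apart.

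The promoters of 9 of the 10 genes were found in the RefSeq promoter table (GRCm38.p6). Windows of 5 genes hold the E-box or D-box letters through which CLOCK-ARNTL and the PAR bZIP factors DBP and TEF are known to act. The sequences of 4 of these genes are shown, 1 window for each, and those of Tef are not. Each line gives the 250 bases before the RefSeq start, 5′ to 3′ in the direction of transcription, with the motif in capitals.
Ciart chr3:95882229-95882478 (- strand): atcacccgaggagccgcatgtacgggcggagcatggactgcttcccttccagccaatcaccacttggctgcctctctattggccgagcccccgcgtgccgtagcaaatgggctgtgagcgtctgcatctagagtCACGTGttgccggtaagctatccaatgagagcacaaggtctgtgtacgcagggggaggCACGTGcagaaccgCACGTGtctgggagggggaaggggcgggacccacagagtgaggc
Per3 chr4:151044666-151044915 (- strand): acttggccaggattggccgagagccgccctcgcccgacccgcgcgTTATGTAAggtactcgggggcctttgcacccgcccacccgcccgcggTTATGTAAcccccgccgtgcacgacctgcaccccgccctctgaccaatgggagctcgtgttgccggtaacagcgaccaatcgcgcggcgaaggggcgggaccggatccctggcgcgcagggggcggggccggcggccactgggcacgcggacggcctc
Cry1 chr10:85185055-85185304 (- strand): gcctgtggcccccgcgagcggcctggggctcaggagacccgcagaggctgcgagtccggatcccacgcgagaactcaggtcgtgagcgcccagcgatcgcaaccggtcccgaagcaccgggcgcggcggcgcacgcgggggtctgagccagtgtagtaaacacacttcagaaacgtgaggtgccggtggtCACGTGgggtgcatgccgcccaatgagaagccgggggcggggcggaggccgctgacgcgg
Per1 chr11:69098699-69098948 (+ strand): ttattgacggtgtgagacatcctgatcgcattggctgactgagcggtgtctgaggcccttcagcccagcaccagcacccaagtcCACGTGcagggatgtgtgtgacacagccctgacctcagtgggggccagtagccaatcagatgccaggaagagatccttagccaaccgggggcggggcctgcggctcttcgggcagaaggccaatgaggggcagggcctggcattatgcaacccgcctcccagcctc
The E-box CACGTG occurred 3 times in the Ciart window, 116, 58 and 44 bases before the start, and once in the Cry1 window at 60 bases. Per1 has 2 windows, and the 1 shown held the E-box once, at 166 bases. The other Per1 window, chr11:69099902-69100151, held no motif. Both windows of Tef held the E-box as well, at 127 and 138 bases. The Per3 window held the D-box TTATGTAA at 205 and 158 bases. Among 32851 promoter windows of the same length, searched on both strands, 6.02% held CACGTG and 0.819% held TTATGTAA. The D-box variant TTACGTAA (0.113% of windows) and the cores TAGGTCA (2.23%) and TGGGTCA (3.24%) of NR1D and ROR sites were found in none of the members' windows. A match of letters is a description and shows no binding. No motif was found in the windows of Cry2, Nr1d1, Nr1d2 and Dbp, which says only that these letters are not within 250 bases of that start.

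Hearts and CFs ordered the genes differently when the mean level was expressed as CPM (counts per 1000000 counts of the scaled library) per kilobase of exon. In Het hearts Nr1d1 stood highest at 38.7 ± 5.92 (SD, n = 4), followed by Dbp at 16.1 ± 4.57, Per1 at 16.05 ± 2.81 and Tef at 13.6 ± 1.39. The last 3 did not differ beyond their spread. Nr1d2 at 7.34 ± 0.84, Cry2 at 5.18 ± 0.18, Per2 at 4.02 ± 0.79, Ciart at 3.82 ± 0.46, Cry1 at 2.71 ± 0.23 and Per3 at 1.57 ± 0.25 followed, with Per2 and Ciart within each other's spread. In untreated si-NC CFs, Nr1d2 at 11.3 ± 0.21 (SD, n = 3) and Nr1d1 at 10.3 ± 0.32 were highest, and Cry1 at 4.63 ± 0.18 and Tef at 4.42 ± 0.13 came next. Per1 stood at 3.44 ± 0.09, Cry2 at 2.90 ± 0.09, Dbp at 1.96 ± 0.27, Per2 at 0.924 ± 0.095, Per3 at 0.782 ± 0.11 and Ciart at 0.378 ± 0.086. Heart and CF tables were made and scaled separately, so only the order is set side by side. Exons of Nr1d1 overlap those of Thra on the other strand over 263 of 3077 bases, Dbp those of Sphk2 over 539 of 2993, Cry2 those of D930015M05Rik over 295 of 6320 and Tef those of Gm17597 over 193 of 7867. The strand setting of the counting was not given, so reads of these overlaps cannot be assigned to 1 gene with certainty.

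Across the 8 hearts the clock genes were not level, and the order of the hearts for Dbp, Tef and Per3 did not follow genotype. The hearts are named Het A to D and KO A to D in the order of their columns, since the numbers in the column names are absent from the sample titles. Dbp, which activates D-box genes, measured 63.8, 55.3, 35.9 and 37.4 CPM in the Het hearts and 46.7, 42.5, 75.9 and 28.9 CPM in the KO hearts. Its highest and lowest levels were thus both in KO hearts, and the genotypes overlapped. Tef, a PAR bZIP relative of Dbp, measured 113, 118.8, 96.0 and 99.0 CPM in Het and 107, 123, 124 and 98.4 CPM in KO hearts. Per3, the third of the PER paralogs, measured 15.7, 18.1, 12.6 and 13.8 CPM in Het and 16.2, 17.4, 21.0 and 12.5 CPM in KO hearts. Het C, Het D and KO D were the 3 lowest hearts for each of Dbp, Tef and Per3. For the activator Arntl the values were 10.6, 10.1, 15.6 and 18.9 CPM in Het and 14.1, 10.3, 7.56 and 17.6 CPM in KO hearts. Its partner paralog Npas2 measured 4.81, 4.01, 6.41 and 6.33 CPM in Het and 4.87, 3.59, 4.40 and 6.38 CPM in KO hearts. The same 3 hearts, Het C, Het D and KO D, were the 3 highest for Arntl and for Npas2, and KO C was the highest for Dbp, Tef and Per3 and the lowest for Arntl. This ordering was noticed after the values were seen and is given as a description, without a test. The summed level of 5 atrial myocyte markers was also highest in these 3 hearts, at 569 CPM in Het C, 348 in Het D and 300 in KO D against 169 to 254 in the other 5, and its part in the ordering was not tested. Summed cardiomyocyte markers ranged from 36720 to 39435 CPM in Het and from 35844.5 to 38090.1 CPM in KO hearts.

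**Figure D1:**
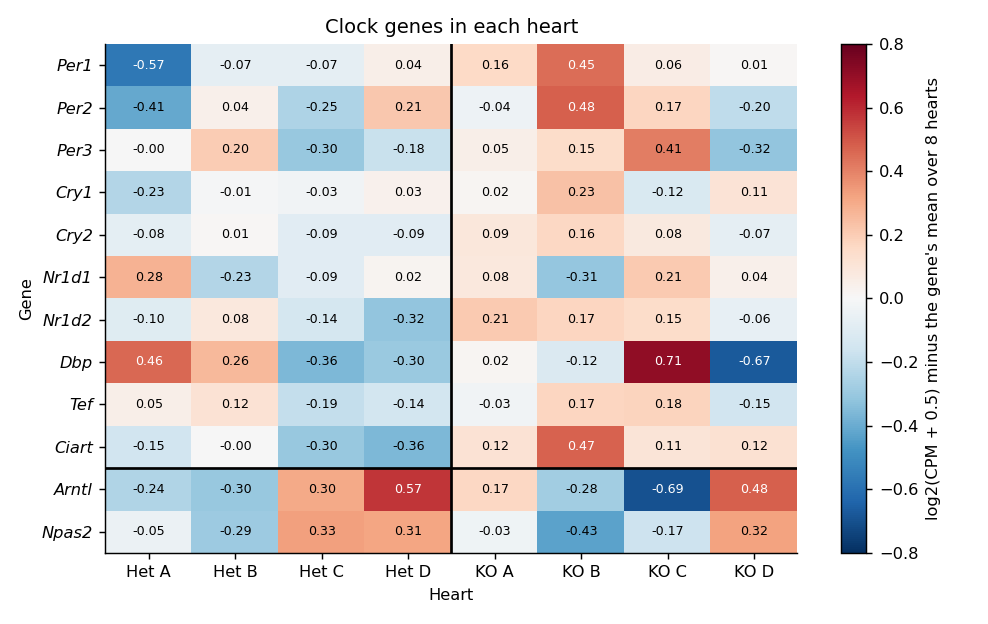
Heat map of the 10 clock genes and the activators Arntl and Npas2 (vertical axis) in 4 Het and 4 KO hearts (horizontal axis). Colour and number give log2(CPM + 0.5) minus the gene's mean over 8 hearts, and Het C, Het D and KO D are below the mean for Dbp, Tef and Per3 and above it for Arntl and Npas2.

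The remaining genes did not share that order. Per1 and Per2, the early repressors that also respond to acute signals, were lowest in Het A and highest in KO B. Per1 measured 67.3, 95.3, 95.4 and 103 CPM in Het and 112, 137, 104.3 and 101 CPM in KO hearts. Per2 measured 18.7, 25.6, 20.9 and 29.0 CPM in Het and 24.2, 34.9, 28.1 and 21.6 CPM in KO hearts. Nr1d1, a haem-binding nuclear receptor that represses Arntl, ran the other way in these hearts, at 143, 101, 111 and 120 CPM in Het and 126, 95.4, 137 and 122 CPM in KO, with Het A highest and KO B lowest. Nr1d2, its paralog, measured 40.1, 45.5, 38.9 and 34.3 CPM in Het and 49.6, 48.4, 47.6 and 41.0 CPM in KO hearts. Of the CRY repressors, Cry1 lay between 7.96 and 9.66 CPM in Het and between 8.63 and 11.2 CPM in KO hearts, and Cry2 between 32.1 and 34.4 CPM in Het and between 32.6 and 38.4 CPM in KO hearts. Ciart, a repressor of CLOCK-ARNTL activity also known as CHRONO, measured 8.92, 9.97, 7.98 and 7.65 CPM in Het and 10.9, 14.0, 10.8 and 10.9 CPM in KO hearts, and was the 1 member whose genotypes did not overlap. Of all 16675 genes tested, 2.37% had every KO heart on 1 side of every Het heart.

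No clock gene passed the test between KO and Het hearts. Tested in edgeR by the quasi-likelihood F-test, with p-values adjusted over 16675 genes (Benjamini-Hochberg), 0 of 10 members and 0% of all genes had an adjusted p of at most 0.05, and with a log2 fold change of at least 1 as well the share of all genes called was again 0%. At an unadjusted p under 0.05 there were 3 of 10 members (Ciart, Nr1d2 and Cry2) and 601 of 16675 genes. DESeq2 called 1 gene higher and 2 lower, none of them a member. The log2 fold change (KO over Het) was 0.43 for Ciart (SE 0.11, unadjusted p = 0.0031, adjusted p = 1.00), 0.33 for Per1 (SE 0.14) and 0.23 for Nr1d2 (SE 0.09). The values were 0.21 for Per2, 0.16 for Per3, 0.13 for Cry1, 0.13 for Cry2, 0.09 for Tef, 0.01 for Dbp and 0.01 for Nr1d1. The estimate was above 0 for 10 of 10 members and for 8249 of 16675 genes, and the median was 0.15 over the members and -0.00 over all genes. The members are not independent of one another, since they are driven by the same factors. For Dbp the estimate ran from -0.29 to 0.20 when 1 heart was left out and for Nr1d1 from -0.06 to 0.11, so their signs rested on single hearts. The lowest values without 1 heart were 0.07 for Per2, 0.03 for Per3, 0.06 for Cry1 and 0.04 for Tef. Among 21 other clock genes tested, 14 estimates were above 0 and 0 passed, with -0.15 for Arntl (SE 0.31), -0.08 for Clock (SE 0.07), 0.12 for Hlf (SE 0.15), 0.03 for Nfil3 (SE 0.13), 0.10 for Bhlhe40 (SE 0.12) and -0.10 for Bhlhe41 (SE 0.09).

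The spread between hearts of 1 genotype was wide for some clock genes and narrow for others. The pooled SD of log2(CPM + 0.5) was 0.494 for Dbp, which placed it at percentile 97.4 of the 16675 tested genes. Arntl stood at 0.470 (percentile 97.1) and Npas2 at 0.306 (percentile 91.7). Among the repressors, Per2 had 0.286 (percentile 90.1), Per3 0.263 (percentile 87.6), Per1 0.239 (percentile 84.4) and Nr1d1 0.219 (percentile 80.7). Ciart at 0.170, Tef at 0.155, Nr1d2 at 0.145 and Cry1 at 0.135 were between percentiles 54.0 and 68.0. Clock had 0.103 (percentile 35.7), and Cry2 at 0.077 (percentile 19.5) varied least of the members. Among the 10231 genes of at least 5 CPM, which leaves out the noisier low counts, the percentiles were 83.9 for Ciart, 79.1 for Tef, 75.5 for Nr1d2, 71.0 for Cry1, 50.1 for Clock and 28.5 for Cry2, and Dbp, Arntl, Npas2, the PER genes and Nr1d1 were at 91.9 or above. CLOCK mRNA is known to cycle weakly in peripheral tissues, and CRY2 less than CRY1. The median SD was 0.195 over the members, 0.128 over all tested genes and 0.103 over those of at least 5 CPM. Between the lowest and the highest of the 8 hearts, Per1 differed 2.03-fold and Per2 1.87-fold. Time of day is known to move most of these genes in the heart. The collection times were not given, and their part in the spread was not tested.

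**Figure D2:**
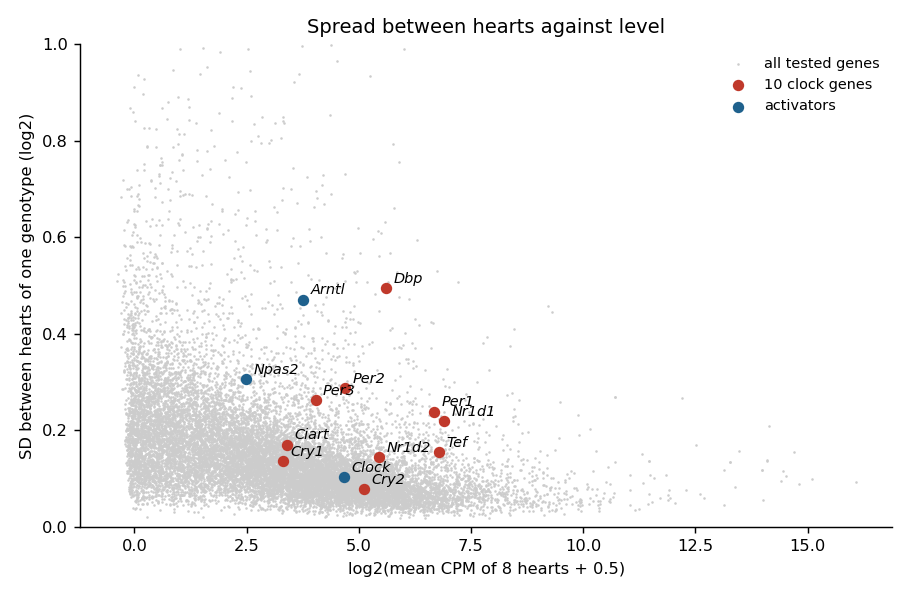
Spread between hearts of 1 genotype (vertical axis, pooled SD of log2(CPM + 0.5), 3 degrees of freedom per genotype) against level (horizontal axis, log2 of the mean CPM of 8 hearts + 0.5) for every tested gene in grey. Dbp and Arntl lie above nearly all genes of their level, whereas Cry2 and Clock lie within the cloud. The vertical axis ends at 1, and 85 genes above it are not drawn.

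Arntl and its repressor Nr1d1, which peak at opposite times of day, were set against each other across hearts, and the test found no relation. Over the 8 hearts, log2(CPM + 0.5) of Arntl and Nr1d1 had a Pearson r of -0.05 (exact permutation p = 0.896) and a Spearman rho of -0.02 (exact permutation p = 0.977). Without KO C and Het D, the 2 hearts farthest from the median of Arntl, r was 0.28 (exact permutation p = 0.575, n = 6) and rho 0.43 (exact permutation p = 0.419). With genotype means removed, r was -0.05 (exact permutation p = 0.905). This was the only such correlation tested. For Dbp, Per3 and Tef, whose order over the hearts had already been seen, the r with Arntl was -0.88, -0.91 and -0.93 over the same 8 libraries, given as a description. Over the same hearts, the genes whose log2 profile was most like the mean z-scored profile of the 10 members were Pold3 (r = 0.962), Cdc45 (r = 0.960), Zfp704 (r = 0.943), Slc35g2 (r = 0.933) and Isy1 (r = 0.932). The least alike were Grin2d (r = -0.917), Pltp (r = -0.910), Colq (r = -0.901), Gm47655 (r = -0.894) and Gm8524 (r = -0.893). These r values were the extremes of 14436 genes over 8 hearts and carry no test. The members' mean profile itself was -0.433, 0.132, -0.779 and -0.507 in Het A to D and 0.342, 0.917, 0.730 and -0.402 in KO A to D.

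In untreated CFs, both siRNAs against IAMP lowered Dbp and the NR1D repressors, whereas Cry2 rose with si-IAMP-2. Dbp measured 6.35, 4.96 and 6.32 CPM with si-NC, 2.82, 2.45 and 3.15 CPM with si-IAMP-1, and 2.72, 2.12 and 2.48 CPM with si-IAMP-2. All 6 knockdown libraries were below all 3 controls, with log2 fold changes of -1.07 (SE 0.15, adjusted p = 1.7e-05) and -1.29 (SE 0.15, adjusted p = 1.4e-06). Nr1d2 measured 60.5, 62.4 and 60.3 CPM with si-NC, 44.5, 44.1 and 45.7 CPM with si-IAMP-1, and 38.4, 37.0 and 33.6 CPM with si-IAMP-2. The 3 groups did not overlap, and Nr1d2 fell by 0.45 (SE 0.05, adjusted p = 8.8e-07) and by 0.77 (SE 0.05, adjusted p = 7.0e-10) on the log2 scale. Nr1d1 went from 31.4, 30.9 and 32.8 CPM to 25.0, 26.1 and 26.4 CPM and to 19.7, 22.2 and 22.3 CPM, again in 3 separate ranges. It fell by 0.30 (SE 0.06, adjusted p = 3.7e-04) and by 0.59 (SE 0.06, adjusted p = 1.6e-07). Per2 measured 6.05, 5.10 and 5.08 CPM with si-NC, 3.496, 2.96 and 2.89 CPM with si-IAMP-1, and 3.83, 3.76 and 3.96 CPM with si-IAMP-2. Both knockdown groups were below the controls (log2 fold changes -0.80, SE 0.12, adjusted p = 5.2e-05, and -0.51, SE 0.12, adjusted p = 0.0021). How many of all genes had CF groups without overlap was not counted, here or in the comparisons below. Separate ranges are therefore a description of these genes alone.

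**Figure D3:**
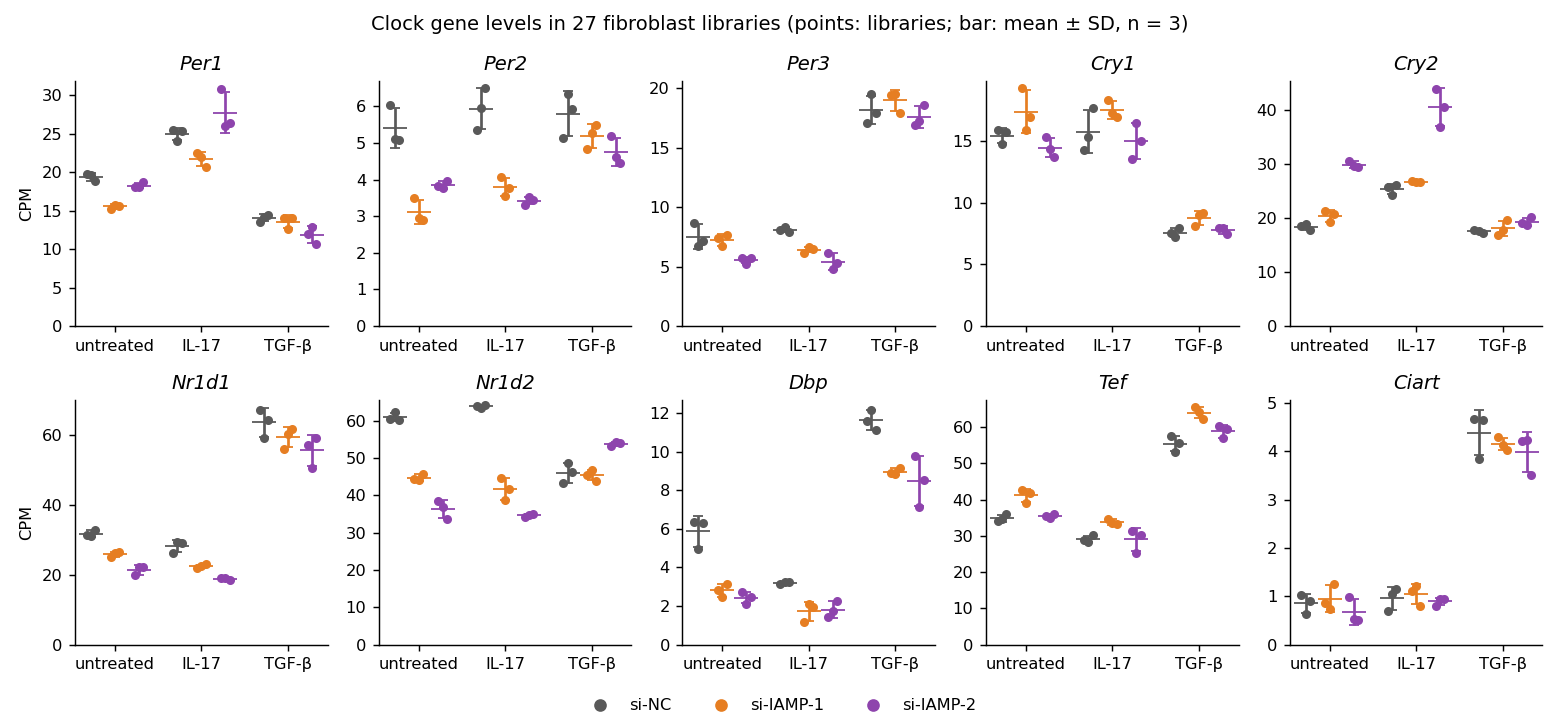
Level of each of the 10 clock genes (vertical axes, CPM from 0, a scale of its own in each panel) in 27 CF libraries under 3 siRNAs and 3 conditions (horizontal axes). Points are libraries and bars give the mean ± SD (n = 3). For each siRNA, mean Dbp is lowest under IL-17 and highest under TGF-β, and Ciart, Per3 and Nr1d1 are higher in the TGF-β groups than in the others.

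The other PER and CRY genes differed between the siRNAs in untreated CFs. Cry2 measured 18.5, 18.8 and 17.7 CPM with si-NC, 21.2, 19.2 and 20.6 CPM with si-IAMP-1, and 30.6, 29.5 and 29.4 CPM with si-IAMP-2. The log2 fold change was 0.14 with si-IAMP-1 (SE 0.06, adjusted p = 0.053) and 0.68 with si-IAMP-2 (SE 0.06, adjusted p = 1.8e-08). Per1 fell with si-IAMP-1, from 19.7, 19.6 and 18.8 CPM to 15.2, 15.8 and 15.7 CPM (log2 fold change -0.32, SE 0.06, adjusted p = 1.9e-04), and was 18.04, 18.1 and 18.7 CPM with si-IAMP-2 (-0.11, adjusted p = 0.14). Per3 fell with si-IAMP-2, from 8.69, 6.71 and 7.14 CPM to 5.68, 5.22 and 5.74 CPM (-0.46, SE 0.11, adjusted p = 0.0019), and was 7.39, 6.69 and 7.68 CPM with si-IAMP-1 (-0.06, adjusted p = 0.74). Tef rose with si-IAMP-1, from 34.0, 34.5 and 36.0 CPM to 42.7, 39.2 and 41.8 CPM (0.24, SE 0.05, adjusted p = 7.0e-04), and had a fold change of 0.00 with si-IAMP-2 (adjusted p = 0.95). Cry1 had 0.16 and -0.11 and Ciart 0.15 and -0.36, and neither passed with either siRNA. Ciart was at 0.505 to 1.26 CPM in these 9 libraries, the lowest level of the members, and its SE of 0.31 and 0.32 was the largest.

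By adjusted p alone, 1 of 10 members was higher and 5 were lower with si-IAMP-1, where 19.5% of 19669 genes were higher and 20.4% lower. With si-IAMP-2, 1 of 10 was higher and 5 were lower, where 24.4% of genes were higher and 25% lower. With a log2 fold change of at least 1 required as well, Dbp was the 1 member called with each siRNA, against 4.76% and 10.7% of all genes. Dbp had a log2 fold change of -0.98 with si-IAMP-1 without si-IAMP-1 replicate 2, which leaves 0 members called. The median over the members was -0.18 and -0.41, and over all genes -0.02 in both. The summed cardiomyocyte markers moved with the siRNAs, from 89.9 to 97.7 CPM with si-NC to 41.9 to 46.9 CPM with si-IAMP-1 and 27.6 to 32.6 CPM with si-IAMP-2, with Myh6 and Myl2 at or under the floor in each group. The summed macrophage markers were 17.6 to 19.8, 22.4 to 22.8 and 29.4 to 30.9 CPM in the same groups, and the fibroblast markers 8268 to 8390, 11038 to 11342 and 7778 to 7995 CPM. The smooth muscle markers were 59.9 to 68.4 CPM with si-NC, 52.9 to 57.5 with si-IAMP-1 and 46.1 to 54.7 with si-IAMP-2. The part of these markers in the results was not tested.

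The activators and the other clock genes moved as well. Clock measured 104.5, 108 and 91.0 CPM with si-NC, 61.6, 60.7 and 64.2 CPM with si-IAMP-1, and 57.9, 57.1 and 57.3 CPM with si-IAMP-2, and fell by 0.71 (SE 0.05) and by 0.84 (SE 0.05). Arntl rose with si-IAMP-2, from 30.9, 33.6 and 32.4 CPM to 51.8, 57.5 and 48.0 CPM (0.68, SE 0.06, adjusted p = 3.3e-08), and was 35.0, 33.2 and 33.1 CPM with si-IAMP-1 (0.06, adjusted p = 0.50). Of the 23 other clock genes, all tested, 5 were higher and 8 lower with si-IAMP-1, and 12 were higher and 6 lower with si-IAMP-2. Hlf, the third PAR bZIP factor, was low at 0.546, 0.701 and 0.377 CPM with si-NC and rose to 3.52, 2.71 and 3.79 CPM (2.62, SE 0.21) and to 3.24, 3.08 and 3.06 CPM (2.51, SE 0.21). Nfil3, which represses the D-box genes that DBP activates, rose by 0.80 (SE 0.06) and 1.38 (SE 0.06). The bHLH repressor Bhlhe40 rose by 0.54 (SE 0.04) and 0.99 (SE 0.04), and its paralog Bhlhe41 had -0.22 and -0.33, both past the adjusted p. Also called were Usp2, a deubiquitinase under clock control, with si-IAMP-1 (-1.15, SE 0.09), and with si-IAMP-2 Fbxl21 (1.06), Rorb (1.22), Timeless (-1.45) and the cell cycle kinase Wee1 (-1.22).

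**Figure D4:**
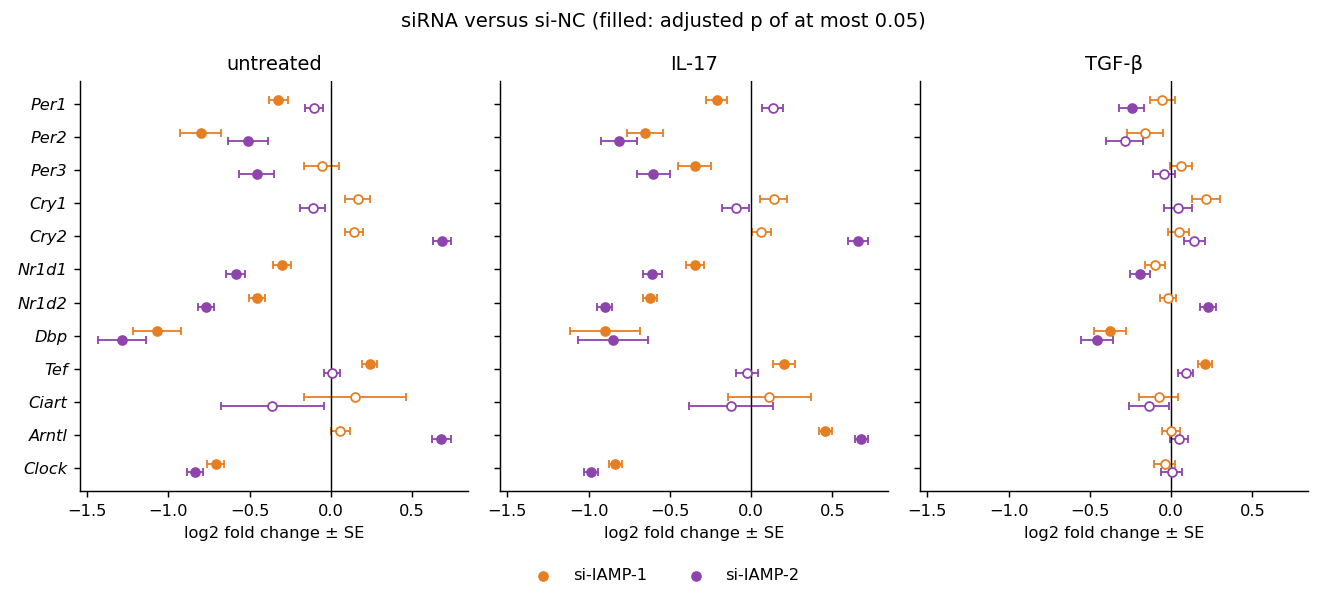
Log2 fold change (horizontal axes) of each siRNA against si-NC, with SE as bars, for the 10 clock genes and the activators Arntl and Clock (vertical axis) in untreated, IL-17 and TGF-β CFs. Filled points had an adjusted p of at most 0.05. Dbp is below 0 in all 3 panels, whereas Nr1d2 is at -0.45 and -0.77 in untreated CFs and at -0.02 and 0.23 under TGF-β.

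Under IL-17 the knockdowns were followed by lower Dbp, Nr1d2, Per2, Nr1d1 and Per3 with each siRNA. Nr1d2 measured 64.0, 63.5 and 64.2 CPM with si-NC, 44.7, 38.9 and 41.8 CPM with si-IAMP-1, and 34.3, 34.9 and 35.0 CPM with si-IAMP-2. The 3 ranges were separate (log2 fold changes -0.62, SE 0.05, adjusted p = 6.9e-09, and -0.90, SE 0.05, adjusted p = 2.9e-11). Dbp measured 3.15, 3.25 and 3.23 CPM with si-NC, 1.17, 2.096 and 1.93 CPM with si-IAMP-1, and 1.41, 1.73 and 2.28 CPM with si-IAMP-2 (-0.90, SE 0.22, adjusted p = 0.0025, and -0.85, SE 0.21, adjusted p = 0.0029). The knockdown groups overlapped each other and were both below the controls. Per2 was 5.37, 5.96 and 6.50 CPM with si-NC and fell to 4.07, 3.56 and 3.77 CPM (-0.65, SE 0.11) and to 3.32, 3.53 and 3.44 CPM (-0.81, SE 0.11). Nr1d1 was 26.2, 29.4 and 29.1 CPM with si-NC and fell to 22.0, 22.3 and 22.9 CPM (-0.34, SE 0.06) and to 18.9, 19.1 and 18.3 CPM (-0.61, SE 0.06). Per3 was 8.09, 8.32 and 7.88 CPM with si-NC and fell to 6.17, 6.60 and 6.47 CPM (-0.35, SE 0.10) and to 6.15, 4.76 and 5.31 CPM (-0.60, SE 0.10). Cry2 again rose with si-IAMP-2, from 25.7, 24.3 and 25.98 CPM to 43.8, 36.9 and 40.5 CPM (0.66, SE 0.06, adjusted p = 6.9e-08), and was 26.8, 26.6 and 26.6 CPM with si-IAMP-1 (0.06, adjusted p = 0.46). Per1 had -0.21 (adjusted p = 0.016) and 0.13 (adjusted p = 0.11), and Tef 0.20 (adjusted p = 0.022) and -0.03 (adjusted p = 0.80). Cry1 and Ciart did not pass with either siRNA.

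By adjusted p alone, 1 of 10 members was higher and 6 were lower with si-IAMP-1, against 20.3% and 21.9% of 19906 genes. With si-IAMP-2, 1 was higher and 5 were lower, against 25% and 25.6%. A change of at least 1.5-fold was the second criterion here and in the comparisons below. The direct comparison of the siRNAs in untreated CFs was the exception and kept the 2-fold criterion. Dbp, Per2 and Nr1d2 were called with si-IAMP-1, 3 of 10 members against 13.5% of all genes, and Nr1d2, Dbp, Per2, Nr1d1, Per3 and Cry2 with si-IAMP-2, 6 of 10 against 21.7%. Single libraries decided some of these calls. Nr1d2 had -0.57 with si-IAMP-1 without si-IAMP-1_IL17 replicate 2, and with si-IAMP-2 Per3 had -0.52 without si-IAMP-2_IL17 replicate 2 and -0.58 without si-NC_IL17 replicate 2, the library without which Nr1d1 also had -0.58. Among the other 23 clock genes, 4 were higher and 11 lower with si-IAMP-1, and 9 were higher and 8 lower with si-IAMP-2. Clock fell by 0.83 (SE 0.04) and by 0.99 (SE 0.04), Arntl rose by 0.46 (SE 0.04) and 0.68 (SE 0.04), and Hlf rose by 1.84 (SE 0.17) and 2.25 (SE 0.17). Nfil3 had 0.12 (adjusted p = 0.10) and 0.60 (SE 0.06, and 0.54 without si-NC_IL17 replicate 3, 0.58 without si-IAMP-2_IL17 replicate 1 or 3), Bhlhe40 -0.04 (adjusted p = 0.42) and 0.14 (adjusted p = 0.0024), and Bhlhe41 -0.26 (adjusted p = 0.0050) and -0.01 (adjusted p = 0.90). Usp2 (-1.12), Timeless (-0.68), Tsc22d3 (-0.76) and the ROR receptor Rora (-0.64) were also called with si-IAMP-1, and Timeless (-1.53) and Wee1 (-1.41) with si-IAMP-2. Summed cardiomyocyte markers were 69.4 to 76.2 CPM with si-NC_IL17, 31.8 to 35.4 with si-IAMP-1_IL17 and 22.8 to 25.7 with si-IAMP-2_IL17, with Myh6 and Myl2 at or under the floor. Macrophage markers were 17.9 to 20.2, 23.86 to 24.5 and 29.2 to 32.5 CPM in these groups, smooth muscle markers 87.3 to 91.04, 73.9 to 79.0 and 65.2 to 69.6 CPM, and fibroblast markers 8124 to 8235, 10279 to 10714 and 7870 to 8116 CPM.

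Under TGF-β the differences between siRNAs were small. Dbp measured 11.6, 12.2 and 11.2 CPM with si-NC, 8.92, 8.84 and 9.16 CPM with si-IAMP-1, and 9.76, 7.16 and 8.53 CPM with si-IAMP-2. Both knockdown groups were below the controls (log2 fold changes -0.37, SE 0.10, adjusted p = 0.0088, and -0.46, SE 0.10, adjusted p = 0.0016). Nr1d2 measured 43.4, 48.7 and 46.2 CPM with si-NC, 45.5, 46.9 and 44.0 CPM with si-IAMP-1 and 53.3, 54.3 and 54.1 CPM with si-IAMP-2. It overlapped the controls with si-IAMP-1 (-0.02, adjusted p = 0.86) and rose with si-IAMP-2 (0.23, SE 0.05, adjusted p = 0.0019). Tef rose with si-IAMP-1 (0.21, SE 0.04, adjusted p = 0.0021), from 57.5, 53.2 and 55.5 CPM to 65.4, 64.3 and 62.3 CPM. Nr1d1 (-0.19, SE 0.06, adjusted p = 0.023) and Per1 (-0.24, SE 0.08, adjusted p = 0.027) fell with si-IAMP-2. Per2 had -0.16 and -0.29, Cry2 0.05 and 0.14, Cry1 0.21 and 0.04, Per3 0.06 and -0.05, and Ciart -0.08 and -0.14, none past the adjusted p. Thus 1 member was higher and 1 lower with si-IAMP-1, against 11.7% and 11.4% of 19891 genes, and 1 was higher and 3 lower with si-IAMP-2, against 15.1% and 14.8%. None of the 10 was called by edgeR or DESeq2 with either siRNA, where 4.36% and 7.51% of all genes were. Of the 23 other clock genes, 3 were higher and 2 lower with si-IAMP-1, and 6 were higher and 5 lower with si-IAMP-2. Clock (-0.04 and 0.00) and Arntl (0.00 and 0.05) did not pass, whereas Hlf rose by 0.81 (SE 0.13) and 0.65 (SE 0.13, and 0.55 without si-NC_TGF replicate 2), and Usp2 (-1.11) and Npas2 (-0.97) were called with si-IAMP-2. Nfil3 had 0.21 and -0.02, Bhlhe40 -0.05 and 0.16 and Bhlhe41 -0.04 and -0.15, of which 1 passed, Bhlhe40 with si-IAMP-2 (adjusted p = 0.0041).

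The siRNAs target the same transcript, so their direct comparison asks where they part. In untreated CFs, 7 of 10 members differed between si-IAMP-2 and si-IAMP-1 by adjusted p, against 45.5% of all genes, and 0 of 10 were called, by edgeR or DESeq2, against 6.65%. Cry2 was higher with si-IAMP-2 (0.54, SE 0.06) and so was Per1 (0.22, SE 0.06), whereas Per3 (-0.40), Nr1d2 (-0.32), Nr1d1 (-0.29), Cry1 (-0.28) and Tef (-0.23) were lower. Under IL-17, 7 of 10 members differed, against 46.2%, and Cry2 was called (0.59, SE 0.06, adjusted p = 3.3e-07), 1 of 10 against 15.7%. Cry2 had 0.52 without si-IAMP-2_IL17 replicate 1 and 0.58 without replicate 3, which leaves 0 called. Per1 was higher (0.35) and Nr1d2 (-0.28), Nr1d1 (-0.26), Per3 (-0.26), Cry1 (-0.23) and Tef (-0.23) were lower. Under TGF-β, Nr1d2 was the 1 member that differed (0.25, SE 0.05, adjusted p = 0.0014), against 24%, and 0 of 10 were called against 3.96%. For Dbp the difference between the siRNAs was -0.22 (SE 0.15), 0.05 (SE 0.22) and -0.08 (SE 0.10) in the 3 conditions and passed in none of them. Per2 had 0.29, -0.16 and -0.13 and Ciart -0.51, -0.24 and -0.06, which passed in none either. Among the other clock genes, Arntl was higher with si-IAMP-2 in untreated CFs (0.62, SE 0.06) and under IL-17 (0.22, SE 0.04), and so were Nfil3 (0.58 and 0.48) and Bhlhe40 (0.45 and 0.18). Under TGF-β Bhlhe40 was higher (0.20), Nfil3 lower (-0.22, adjusted p = 0.047) and Arntl did not pass (0.05). Clock (-0.15), Hlf (0.41) and Bhlhe41 (0.24) passed under IL-17 alone of the 3 conditions. Those called were Rorb (2.11) in untreated CFs, Npas2 (-0.83) under TGF-β, and under IL-17 Usp2 (0.85), Tspan4 (-0.92), Timeless (-0.85) and Wee1 (-0.90) among others. The IAMP transcript itself had log2 fold changes of -0.72, -0.58 and -0.41 between si-IAMP-2 and si-IAMP-1.

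Stimulated and untreated CFs were compared in 1 fit over all 27 libraries. Each condition came in a table of its own, so stimulus and table cannot be told apart in these comparisons. With si-NC, IL-17 was followed by lower Dbp, from 6.35, 4.96 and 6.32 CPM to 3.15, 3.25 and 3.23 CPM (log2 fold change -0.87, SE 0.16, adjusted p = 1.5e-04). The groups did not overlap. Cry2 rose from 18.5, 18.8 and 17.7 CPM to 25.7, 24.3 and 25.98 CPM (0.46, SE 0.06, adjusted p = 4.4e-07), Per1 from 19.7, 19.6 and 18.8 CPM to 25.5, 24.1 and 25.3 CPM (0.37, SE 0.07, adjusted p = 1.2e-04), and Tef fell from 34.0, 34.5 and 36.0 CPM to 28.9, 28.4 and 30.1 CPM (-0.26, SE 0.05, adjusted p = 9.3e-04). The other 6 members did not pass, with estimates between -0.17 for Nr1d1 and 0.16 for Ciart. By adjusted p, 2 members were higher and 2 lower, against 6.13% and 6.1% of 22359 genes, and 0 were called higher and 1 lower, against 2.09% and 0.984%. Nfil3 (1.03, SE 0.06) and Hlf (0.61, SE 0.19, adjusted p = 0.030) were called among the other clock genes, of which 5 were higher and 2 lower. The Hlf call was lost without si-NC_IL17 replicate 1 (adjusted p = 0.11) or 2 (0.076), without si-NC replicate 1 (0.076) or 3 (0.25, log2 fold change 0.41), and with estimated counts divided by 6 (0.18). Bhlhe40 had 0.38 (SE 0.04) and Bhlhe41 -0.57 (SE 0.07), both past the adjusted p, and Arntl (-0.02) and Clock (-0.05) did not pass. The IL-17 difference of Dbp was -0.70 (SE 0.17, adjusted p = 0.0029) with si-IAMP-1, which called 1 of 10 members against 3.72% of genes, and -0.43 (SE 0.17, adjusted p = 0.097) with si-IAMP-2. It was -0.48 with si-IAMP-1 without si-IAMP-1_IL17 replicate 1. Per1 (0.48) and Cry2 (0.39) also rose with si-IAMP-1, and Tef (-0.29) and Nr1d1 (-0.21) fell, whereas Per2 (0.29), Ciart (0.13), Cry1 (0.01), Nr1d2 (-0.10) and Per3 (-0.18) did not pass. With si-IAMP-2, Per1 was the 1 member called (0.60, SE 0.07), against 3.23% of genes, and had 0.52 without si-IAMP-2_IL17 replicate 1. Cry2 rose (0.44) and Tef (-0.29) and Nr1d1 (-0.19) fell with si-IAMP-2 as well, and Ciart (0.40), Per2 (-0.17), Nr1d2 (-0.06), Cry1 (0.05) and Per3 (-0.04) did not pass. Of the other clock genes, Npas2 was called with si-IAMP-1 (-0.94) and si-IAMP-2 (-0.73), and Bhlhe41 with si-IAMP-1 (-0.61, and -0.53 without si-IAMP-1 replicate 2). Bhlhe41 had -0.25 with si-IAMP-2. Nfil3 rose by 0.35 and 0.26 with the 2 siRNAs, Bhlhe40 had -0.19 and -0.47, Clock -0.17 and -0.20, all past the adjusted p, and Arntl rose with si-IAMP-1 (0.38) and had -0.02 with si-IAMP-2. Hlf did not pass (-0.17 and 0.35). Summed smooth muscle markers were 87.3 to 91.04 CPM in si-NC_IL17 against 59.9 to 68.4 CPM in si-NC, cardiomyocyte markers 69.4 to 76.2 against 89.9 to 97.7, endothelial markers 56.2 to 58.9 against 59.4 to 64.2 and fibroblast markers 8124 to 8235 against 8268 to 8390, and their part in the IL-17 differences was not tested.

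TGF-β was followed by the widest movement of the clock genes in CFs. Ciart rose from 1.03, 0.642 and 0.898 CPM to 4.67, 3.85 and 4.64 CPM (log2 fold change 2.36, SE 0.24, adjusted p = 3.3e-10). Per3 rose from 8.69, 6.71 and 7.14 CPM to 17.1, 19.5 and 17.9 CPM (1.27, SE 0.09), and Nr1d1 from 31.4, 30.9 and 32.8 CPM to 67.2, 59.1 and 64.2 CPM (1.00, SE 0.06). Dbp rose from 6.35, 4.96 and 6.32 CPM to 11.6, 12.2 and 11.2 CPM (0.99, SE 0.16) and Tef from 34.0, 34.5 and 36.0 CPM to 57.5, 53.2 and 55.5 CPM (0.67, SE 0.05). None of these 5 genes had overlapping groups, a description for which the share of all genes was not counted. Cry1 went the other way, from 15.9, 14.8 and 15.7 CPM to 7.57, 7.27 and 7.94 CPM (-1.03, SE 0.08, adjusted p = 1.6e-12). Per1 fell from 19.7, 19.6 and 18.8 CPM to 13.5, 14.2 and 14.5 CPM (-0.46, SE 0.07) and Nr1d2 from 60.5, 62.4 and 60.3 CPM to 43.4, 48.7 and 46.2 CPM (-0.41, SE 0.05). The paralogs NR1D1 and NR1D2, which share their DNA site, thus had mRNAs that moved in opposite directions with si-NC, which was not so with the other siRNAs. Cry2 (-0.07, adjusted p = 0.34) and Per2 (0.10, adjusted p = 0.47) did not pass. The PAR bZIP genes Dbp and Tef and Per3, whose window holds 2 D-boxes, were higher, and of the E-box-bearing genes Ciart and Tef were higher and Cry1 and Per1 lower.

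By adjusted p, 5 members were higher and 3 lower with TGF-β, against 28% and 27.5% of all genes, and 5 were called higher and 1 lower, against 17.7% and 16.1%. Among the other clock genes 8 were higher and 12 lower. Clock fell by 1.10 (SE 0.06), Hlf rose by 2.45 (SE 0.19), Bhlhe40 rose by 1.43 (SE 0.04), Bhlhe41 by 0.39 (SE 0.06), and Arntl (0.02) and Nfil3 (-0.14) did not pass. Npas2 (0.94) and Fbxl21 (0.95) were among those called higher, and Usp2 (-1.37), Rorb (-1.35), Timeless (-1.22) and Wee1 (-0.84) among those called lower. With si-IAMP-1, Ciart (2.13), Dbp (1.67), Per3 (1.39), Nr1d1 (1.20) and Tef (0.64) rose and Cry1 (-0.98) fell, and Per2 rose as well (0.74). All of these were called, 7 of 10 against 33.1% of genes. Per1 (-0.20) and Cry2 (-0.17) were lower by adjusted p, and Nr1d2 did not pass (0.02, adjusted p = 0.73). With si-IAMP-2, Ciart (2.57), Dbp (1.80), Per3 (1.66), Nr1d1 (1.37) and Tef (0.73) rose and Cry1 (-0.89), Cry2 (-0.63) and Per1 (-0.62) fell, 8 of 10 against 33.3%. Per1 had -0.55 without si-IAMP-2_TGF replicate 3. Nr1d2 rose here (0.57, SE 0.05, adjusted p = 6.6e-12), in the direction of Nr1d1, and so did Per2 (0.30, adjusted p = 0.021), both under the fold criterion. Among the other clock genes, Nfil3 fell with both siRNAs (-0.74 and -1.56) and Usp2 did too (-0.78 and -2.34), Tsc22d3 rose (1.20 and 0.90), Bhlhe40 had 0.84 and 0.58, Bhlhe41 0.56 and 0.54 and Clock -0.44 and -0.28, all past the adjusted p. Hlf had 0.63 with si-IAMP-1 (0.50 without si-IAMP-1 replicate 2) and 0.57 with si-IAMP-2. Arntl was called lower with si-IAMP-2 (-0.63, and -0.56 without si-IAMP-2 replicate 2) and had -0.05 with si-IAMP-1. Also called were Fbxl21 (0.84), Tspan4 (-0.68), Timeless (-0.92) and Wee1 (-0.64) with si-IAMP-1, and Rorb (-3.21), Csnk1d (-0.85), Gsk3b (-0.59) and Npas2 (-0.67) with si-IAMP-2. The 3 comparisons use different untreated libraries but the same pair of tables. Over the marker lists, the summed cardiomyocyte genes were 4.65 to 5.34 CPM in si-NC_TGF against 89.9 to 97.7 CPM in si-NC, and the endothelial genes 98.6 to 100.4 CPM against 59.4 to 64.2 CPM. The macrophage genes were 37.4 to 44.6 CPM against 17.6 to 19.8 CPM, the fibroblast genes 13923 to 14519 CPM against 8268 to 8390 CPM, the smooth muscle genes 43.7 to 45.3 CPM against 59.9 to 68.4 CPM and the atrial genes 6.67 to 7.50 CPM against 4.52 to 5.05 CPM. Their part in the TGF-β differences was not tested.

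**Figure D5:**
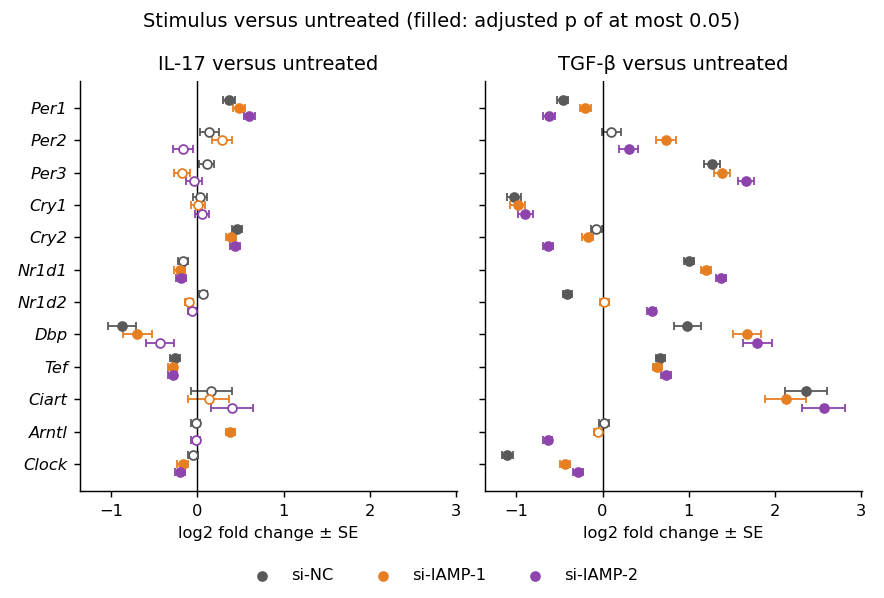
Log2 fold change (horizontal axes) of IL-17 or TGF-β CFs against untreated CFs of the same siRNA, with SE as bars, for the 10 clock genes and the activators Arntl and Clock (vertical axis). Filled points had an adjusted p of at most 0.05. Ciart, Per3, Nr1d1, Dbp and Tef are above 0 and Cry1 below 0 under TGF-β with every siRNA.

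Whether the knockdown effect itself differed between conditions was tested as the siRNA effect under the stimulus minus the effect in untreated CFs. For IL-17, 0 of 10 members passed with either siRNA in edgeR, also with the fold criterion, whereas 1.73% and 1.64% of all genes had an adjusted p of at most 0.05 and 0.394% and 0.487% were called. The smallest adjusted p of the 20 values was 0.32, for Per1 with si-IAMP-2 (0.24, SE 0.09), the estimates ran from -0.30 for Per2 to 0.44 for Dbp, both with si-IAMP-2, and 3 of the 20 had an unadjusted p under 0.05. DESeq2 called 0 members in both. For TGF-β, Nr1d2 had the largest difference, 0.98 (SE 0.07, adjusted p = 6.3e-13) with si-IAMP-2, where its fold change went from -0.77 to 0.23, and 0.43 (SE 0.07, adjusted p = 1.6e-05) with si-IAMP-1. Dbp had 0.69 (SE 0.22, adjusted p = 0.026) and 0.81 (SE 0.22, adjusted p = 0.0053), so it was lowered less by the siRNAs under TGF-β. Per2 had 0.64 (SE 0.16, adjusted p = 0.0031) with si-IAMP-1 and 0.20 (adjusted p = 0.39) with si-IAMP-2. Per1 passed with si-IAMP-1 (0.26, adjusted p = 0.0485), and Cry2 (-0.56, SE 0.08), Per3 (0.39, SE 0.13) and Nr1d1 (0.37, SE 0.08) with si-IAMP-2. The remaining estimates, among them all of Tef, Cry1 and Ciart, lay between -0.23 for Ciart with si-IAMP-1 and 0.21 for Ciart with si-IAMP-2 and did not pass.

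Thus 4 of 10 members passed with si-IAMP-1, against 19.5% of genes, of which 2 were called against 5.43%. With si-IAMP-2, 5 of 10 passed against 29.5%, and 2 were called against 11.2%. The Dbp value with si-IAMP-1 was 0.60 to 0.67 with an adjusted p of 0.052 to 0.083 when any of si-NC replicates 1 and 3, si-IAMP-1 replicate 2, si-NC_TGF replicate 3 or si-IAMP-1_TGF replicate 3 was left out. That of Per2 was 0.56 to 0.58 without si-NC replicate 1, si-IAMP-1 replicate 3 or si-NC_TGF replicate 1. Among the other clock genes, the TGF-β difference was 0.66 (SE 0.08) and 0.82 (SE 0.08) for Clock, -1.81 (SE 0.25) and -1.88 (SE 0.25) for Hlf, -0.60 (SE 0.09) and -1.42 (SE 0.09) for Nfil3, and -0.59 (SE 0.05) and -0.85 (SE 0.05) for Bhlhe40. For Arntl it was -0.06 (adjusted p = 0.68) with si-IAMP-1 and -0.65 (SE 0.08, adjusted p = 2.7e-08) with si-IAMP-2. Bhlhe41 (0.17 and 0.16) did not pass. Single libraries moved some of these values below the fold criterion, among them Clock with si-IAMP-1 (0.58 without si-NC_TGF replicate 1), Nfil3 with si-IAMP-1 (-0.55 to -0.57 without si-NC replicate 2, si-NC_TGF replicate 1 or si-IAMP-1_TGF replicate 1 or 2) and Arntl with si-IAMP-2 (-0.58 without si-IAMP-2 replicate 2 or si-NC_TGF replicate 2). Bhlhe40 with si-IAMP-1 lay at the criterion itself and was under it by DESeq2 (-0.58). Other calls included Usp2 (0.59), Tsc22d3 (0.65) and Npas2 (-1.03) with si-IAMP-1, and Usp2 (-0.97), Fbxl21 (-0.81), Npas2 (-1.62), Timeless (0.97) and Wee1 (0.81) with si-IAMP-2. Under IL-17, Nfil3 was called with both siRNAs (-0.68 and -0.78, SE 0.09). Bhlhe40 was called with si-IAMP-2 (-0.85, SE 0.05) and had -0.57 with si-IAMP-1 (SE 0.05, adjusted p = 3.1e-09), just under the fold criterion, which it passed in 4 of the fits without 1 library. Arntl had 0.40 (adjusted p = 0.0015) and 0.00, and Clock (-0.12 and -0.15), Hlf (-0.77 and -0.26) and Bhlhe41 (-0.03 and 0.32) did not pass.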

How the data were processed

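RNA-seq of 27 CF libraries (9 groups, n = 3) and 8 hearts (4 Het, 4 KO) was analysed from 4 gene tables. The authors enriched poly(A) RNA, trimmed reads with Cutadapt, aligned them with HISAT2 to GRCm38 and quantified genes with StringTie, with the study's own tests run in DESeq2. The deposited heart table holds raw counts per gene. The deposited CF tables hold estimated counts derived from StringTie coverage, in which 1 read pair is worth about 6, so their nominal depth of 104139670 to 119232309 overstates the number of fragments, and 1 CF read pair is a larger share of a library than 1 count of that total. All values were whole numbers. Heart libraries held 23497027 to 23857313 counts. The detection floor was 3 counts in hearts and 18 estimated counts in CFs. Poly(A) counting of whole genes does not separate isoforms.

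Counts were scaled by TMM, filtered with filterByExpr and tested with edgeR 4.0.16 (robust quasi-likelihood fit, limma 3.58.1, R 4.3.3), with Benjamini-Hochberg adjustment over all genes. siRNAs were compared within each table (19669, 19906 and 19891 genes), and stimuli and their interaction with siRNA in 1 fit over 27 libraries (22359 genes). Calls required an adjusted p no larger than 0.05 together with a change of 2-fold or more in hearts and untreated CFs and of 1.5-fold or more elsewhere. The study's methods state these fold criteria for knockdown CFs and for knockdown CFs under IL-17. Those of the other comparisons were chosen here. CPM of CFs were scaled over all 27 libraries, CPM of hearts over the 8 hearts. Gene models were those of GENCODE vM21, which held 55141 of the 55487 identifiers. Correlations and ranks used log2(CPM + 0.5), with exact permutation tests in scipy 1.17.1, two-sided. The script was tested on simulated counts of known fold change.

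The members were chosen by symbol, and the members, the 23 other clock genes and the marker lists were chosen with earlier results of these data known. The rule for named genes took all members, Arntl, Clock, Nfil3, Hlf, Bhlhe40 and Bhlhe41, and the other clock genes where called. Values of some of the other clock genes are not reported here. The 5 most and 5 least alike genes across hearts were named among genes of at least 1 CPM. Alternatives were DESeq2 1.42.0, RLE size factors, no filter or at least 10 counts in every library, estimated counts divided by 6, the other fold criterion, a block for the replicate number, fits on the 2 compared groups alone and leaving out each library. Heart columns carry the genotype and a number that is absent from the sample titles, so they were used as unnumbered replicates. si-IAMP-1 and si-IAMP-2 were matched to the TGF-β columns through the sample descriptions. No libraries of a group held identical values.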

Additional observations from a re-analysis of the deposited data

Results flagged for a closer look

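Among 20 groups of 4 hearts (10 genes, 2 genotypes), 2 held a heart far from the other 3, where chance alone gives about 1 in 20. The gap of the outermost heart, divided by the range of the group, was 0.879 for Cry2 in Het hearts, where Het B was highest at 34.4 CPM, and 0.955 for Ciart in KO hearts, where KO B was highest at 14.0 CPM. Both exceeded the Dixon 95% critical value for 4 samples. For Cry2 the other Het hearts measured 32.1 to 32.4 CPM, so the gap was small on the CPM scale. Cry2 was also the member that varied least between hearts of a genotype. KO B was also the highest heart for Per1, Per2, Cry1 and Cry2.

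The siRNA effect differed between TGF-β and untreated CFs, by the interaction test, for Nr1d2 with si-IAMP-2 by 0.98, for Dbp with si-IAMP-2 by 0.81 and with si-IAMP-1 by 0.69, and for Per2 with si-IAMP-1 by 0.64 on the log2 scale. In all 4 cases the fold change of the siRNA was lower in untreated CFs than under TGF-β. The TGF-β libraries came in a table of their own, so the stimulus and the table cannot be told apart in these differences, and the IAMP transcript was itself lowered less under TGF-β, by an interaction of 0.73 with si-IAMP-1 and 1.02 with si-IAMP-2.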

How the results depend on the processing

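Counts of called members depended mainly on the fold criterion. At 1.5-fold instead of 2-fold, 2 and 4 members were called in untreated CFs with si-IAMP-1 and si-IAMP-2. At 2-fold instead of 1.5-fold, the count was 0 for each siRNA under IL-17, for their direct comparison there and for IL-17 against untreated under each of the 3 siRNAs, 4 and 4 for TGF-β against untreated with si-IAMP-1 and si-IAMP-2, and 0 and 0 for the TGF-β interactions. DESeq2, RLE size factors, both filters, estimated counts divided by 6 and the 2 compared groups alone left every count of called members within 1.5 times. Over all genes, DESeq2 called 1 higher and 2 lower between KO and Het hearts (edgeR 0), and 56 higher and 98 lower for the IL-17 interaction with si-IAMP-1, where edgeR called 88.

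Signs that turned belonged to estimates near 0. Tef with si-IAMP-2 in untreated CFs had -0.0035 with at least 10 counts in every library. Under TGF-β, Arntl with si-IAMP-1 had -0.0027 by DESeq2 and -0.0020 with RLE size factors, and Clock with si-IAMP-2 had -0.0062, -0.00087 and, with the 2 groups alone, -0.0089.

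On leaving out 1 library, counts ran from 0 to 1 for si-IAMP-1 in untreated CFs, for si-IAMP-2 against si-IAMP-1 under IL-17 and for IL-17 against untreated with si-IAMP-1, and from 0 to 2 for IL-17 against untreated with si-IAMP-2 and for the TGF-β interaction with si-IAMP-1. In hearts, Nr1d1 ran from -0.0593 to 0.115, Dbp from -0.288 to 0.196, Per2 from 0.0656 to 0.324, Per3 from 0.0325 to 0.276, Cry1 from 0.0640 to 0.189, Tef from 0.0393 to 0.148, and r of Arntl and Nr1d1 from -0.277 without KO B to 0.296 without KO C. In untreated CFs, Per3 and Ciart with si-IAMP-1 ran from -0.133 to 0.0564 and from -0.105 to 0.299, and Tef with si-IAMP-2 from -0.0177 to 0.0275. Under IL-17, Ciart ran from -0.0843 to 0.265 with si-IAMP-1 and from -0.325 to 0.0152 with si-IAMP-2, and Tef with si-IAMP-2 from -0.0886 to 0.0610. Under TGF-β with si-IAMP-1, Cry2 ran from -0.0142 to 0.0925, Nr1d2 from -0.0546 to 0.0278, Arntl from -0.0353 to 0.0464 and Clock from -0.123 to 0.0198. With si-IAMP-2, Per3 ran from -0.0906 to 0.00699 and Clock from -0.0840 to 0.0582. For IL-17 against untreated with si-NC, Cry1 ran from -0.0656 to 0.0984 and Ciart from -0.00708 to 0.356. The cause of these changes was not tested beyond the smaller number of libraries.

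Same-numbered libraries of different groups did not deviate together, with r from -0.0486 to 0.0144 under IL-17, -0.117 to 0.0344 under TGF-β and -0.0455 to 0.0358 in untreated CFs. These values show no sign of a pairing by number, but they cannot exclude a shared culture or batch. With the replicate number as a block, the pairing moved no count of called members (1 and 1 in untreated CFs, 3 and 6 under IL-17, 0 and 0 under TGF-β for the 2 siRNAs). For the hearts, no paired analysis was possible because the column names and sample titles name no pairs of animals.

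Depth limits Ciart, at 58 to 141 estimated counts in untreated and IL-17 CFs, about 10 to 24 read pairs, and Dbp in those groups. Time of collection was not given for any sample, each condition of the CFs was a table of its own, and 4 hearts a genotype left SEs of 0.06 to 0.33 on the log2 scale.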
